A study of Arabidopsis thaliana with 6 samples.

Results

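The UDP-glycosyltransferase (UGT) genes described here are the 107 loci of the deposited tables whose description holds the words UDP-glycosyltransferase or UDP-glucosyl transferase. The tables list 22183 loci in all, 112 loci carry these words, and 5 of them are left out by name. The rule reads the wording of the description and locus names rather than expression values. The members were, however, chosen with earlier results of these data known. Of the 107 loci, 91 carry the UDP-glucuronosyl/UDP-glucosyltransferase domain in the RefSeq annotation of the genome. The other 16 do not, and they include GBSS1, a granule-bound starch synthase, TPS6, a member of the trehalose phosphate synthase family, SETH2, which belongs to the pathway of GPI anchors, and LEW3, a putative mannosyltransferase of protein glycosylation. The label thus fits 91 members by their domain and not the other 16.

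UGTs move a sugar from a nucleotide donor such as UDP-glucose onto a small acceptor molecule, for example a hormone, a phenolic acid, a monolignol, a flavonol or a foreign compound. The sugar usually makes the acceptor more soluble, lowers or stores its activity and allows its transport into the vacuole. The donor is held by a stretch near the end of the protein that is called the plant secondary product glycosyltransferase (PSPG) box. In leaves, UGTs act on salicylic acid (SA) and its hydroxylated derivatives, on abscisic acid, auxins and cytokinins, and on the sinapate and flavonol pools that absorb ultraviolet light.

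RNA-seq was performed on leaves of 4-week-old short-day plants 12 h after a spray with water or with 300 µM 2,6-dichloroisonicotinic acid (INA), a synthetic analog of SA. Water-treated Columbia wild type (Col) and INA-treated Col (Col+INA), npr1-1 (npr1-1+INA) and hac1-2 hac5-2 (hac1/5+INA) were compared, all of them in the Columbia background, while the mutants without INA were not analysed here, so that a difference between genotypes which existed before the spray cannot be told apart from a difference in the response to INA. NPR1 is the coactivator through which SA acts on gene expression together with TGA transcription factors, and HAC1 and HAC5 are histone acetyltransferases of the CBP/p300 family. RNA of 3 experiments was combined before sequencing, which left 1 library per condition and no replicate for any value below.

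The 4 libraries held 6698569 to 7146973 reads on gene models. HAC5 had 272 reads in water-treated Col and, after INA, 122 in Col, 248 in npr1-1 and 2 in hac1/5, and HAC1 had 69, 28, 63 and 25 in the same order, so that HAC5 was nearly without reads in hac1/5+INA while HAC1 stood at about the level of Col+INA. NPR1 had 286, 1115, 355 and 1476 reads, which does not check the npr1-1 label because that allele is a missense change. The 5 leaf markers summed to 296145 reads in water-treated Col and, after INA, 100164 in Col, 201951 in npr1-1 and 210951 in hac1/5. Col+INA, the reference of the comparisons with both mutants, was thus the lowest library for these markers. The listed seed, flower and root hair markers summed to 0 to 9 reads each. In leaf RNA, fewer cells of a type and less RNA per cell cannot be told apart. A gene was called between 2 libraries at an FDR of at most 0.01 in an exact binomial test on their reads, adjusted over all loci, together with a ratio of CPM (reads scaled to the library total) of at least 2-fold. Such a call speaks of libraries rather than conditions, and each interval given with a fold is a 95% Clopper-Pearson interval that covers counting error only. A gene without reads in a library of this depth could have had up to 0.42 to 0.448 CPM, which is what 3 reads are worth.

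Many members had few reads, as did many other loci. A mean of at least 100 reads over the 4 libraries was reached by 35 members, 40 had a mean under 10 reads, and 9 to 17 members had no read in a given library. Of the genes with a read in Col or Col+INA, 67 of 103 members had a mean of at least 10 reads, beside 14441 of 21105 loci. On the RPKM scale, which divides by gene model length, GBSS1 was the highest with 1238 in water-treated Col and, after INA, 475 in Col, 793 in npr1-1 and 509 in hac1/5. Of the members with the UGT domain, UGT78D2, a glucosyltransferase of flavonols and anthocyanidins, had the highest mean over the 4 libraries with 179, 168, 203 and 105 RPKM, followed by UGT72B1, which was above it in Col+INA and hac1/5+INA, with 100, 181, 73.1 and 188, and by UGT78D1 at 35.8 to 147 RPKM. All members together took 5086 CPM in water-treated Col and, after INA, 3830 in Col, 4525 in npr1-1 and 3088 in hac1/5. Without GBSS1 these sums were 2373, 2789, 2787 and 1973 CPM, so that the drop from Col to Col+INA lay in GBSS1, whereas hac1/5+INA was the lowest library with and without it.

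The first comparison asked which UGT genes responded to INA in wild type. Of 103 members with a read in either library, 19 (18.4%) were higher in Col+INA than Col, beside 14% of all 21105 loci tested, and 6 (5.83%) were lower, beside 8.62% of all loci. The highest folds belonged to UGT73D1, UGT76D1 and UGT71B6, which were close to absent in Col. GBSS1, UGT76E11, UGT76C2, UGT73C6, AT5G05890 and AT5G17040 were the 6 members that were lower. The median log2 ratio was -0.05 over the members and -0.05 over all loci tested, which is the value of a gene with fewer than 3 reads in both libraries. Here and below, medians over members take in all 107, also those without a read in either library, whereas medians over all loci leave such loci out. With edgeR's exact test and an assumed biological variation of 0.4, 3 members were still called higher and 0 lower, and with a variation of 0.2 these counts were 17 and 2.

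**Figure D1:**
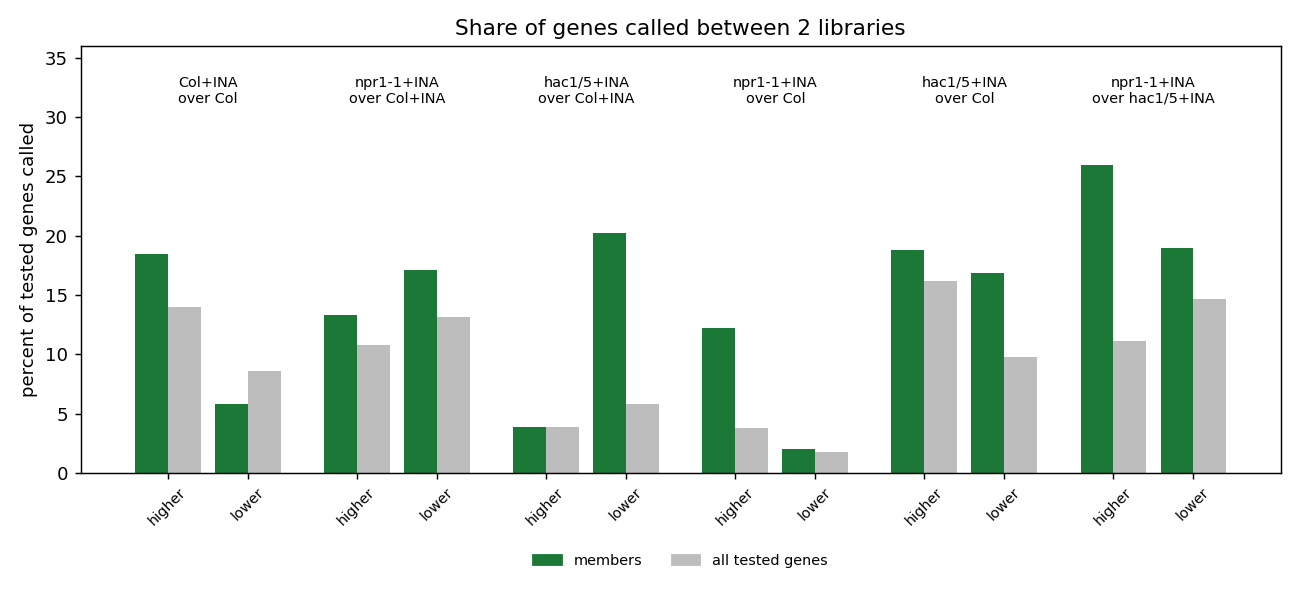
Percent of tested genes called higher or lower in each of the 6 comparisons between 2 libraries, for the UGT members (green) and for all tested loci (grey). The widest gap between the bars is for members lower in hac1/5+INA than Col+INA (20.2% of members beside 5.85% of all loci) and for members higher in npr1-1+INA than hac1/5+INA (26.0% beside 11.2%).

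In npr1-1+INA, 18 of 105 members (17.1%) were lower than in Col+INA, beside 13.2% of all loci, and 14 (13.3%) were higher, beside 10.8%. The most extreme falls were those of UGT73D1, AT1G05675, AT5G59070 and UGT76D1, and the largest rises those of AT3G55710, UGT73B1 and AT4G14090, among members with a mean of at least 20 reads. The median log2 ratio was 0.09 for members and for all loci, again the value of a gene with fewer than 3 reads in both libraries. An assumed variation of 0.4 left 3 members lower and 0 higher, and one of 0.2 left 12 and 8.

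The hac1/5+INA library stood apart by the members that were lower. Compared with Col+INA, 21 of 104 members (20.2%) were lower, beside 5.85% of all loci, and 4 (3.85%) were higher, beside 3.87%. The members that were lower included 5 of the 7 listed phenylpropanoid UGTs and the flavonoid genes UGT78D1 and AT1G06000, together with UGT73D1, UGT73B1, UGT76D1 and UGT85A1. AT2G36780, AT2G36770, UGT73B3 and AT1G05675 were the 4 that were higher. The median log2 ratio was 0.04 for members and for all loci, also the value of a gene with fewer than 3 reads in both libraries. Among genes with a mean of at least 10 reads over the 4 libraries, it was -0.51 for 67 members and 0.12 for all loci, whereas these medians were -0.0020 and 0.17 for Col+INA over Col, and 0.0060 and -0.07 for npr1-1+INA over Col+INA. An assumed variation of 0.2 left 14 members lower and 1 higher, one of 0.4 left 0 in either direction, and edgeR's TMM factors gave 22 lower and 2 higher.

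Set against water-treated Col, 12 of 98 members (12.2%) were higher in npr1-1+INA, beside 3.83% of all loci, and 2 (2.04%) were lower, beside 1.79%. UGT73C1 had the highest level relative to Col in npr1-1+INA, 20.7-fold (9.77 to 52.3). For hac1/5+INA over Col, 19 of 101 members (18.8%) were higher, beside 16.2% of all loci, and 17 (16.8%) were lower, beside 9.81%. UGT73B3 stood 37.9-fold above Col (18.1 to 95.1) and UGT73B1 10.9-fold below it (4.73 to 30.7). With TMM factors, the counts against Col in this mutant were 17 higher and 27 lower, and with DESeq2 size factors 17 and 29. Between both mutants, 26 of 100 members (26.0%) were higher in npr1-1+INA than hac1/5+INA, beside 11.2% of all loci, and 19 (19.0%) were lower, beside 14.7%. TMM factors changed these counts to 29 higher and 13 lower. The median log2 ratios were 0.05 for npr1-1+INA over Col, -0.005 for hac1/5+INA over Col and 0.05 for npr1-1+INA over hac1/5+INA, beside 0.05, 0.03 and 0.05 over all loci. At a mean of at least 10 reads the members had 0.10, -0.41 and 0.35, beside 0.08, 0.31 and -0.18 over all loci.

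**Figure D2:**
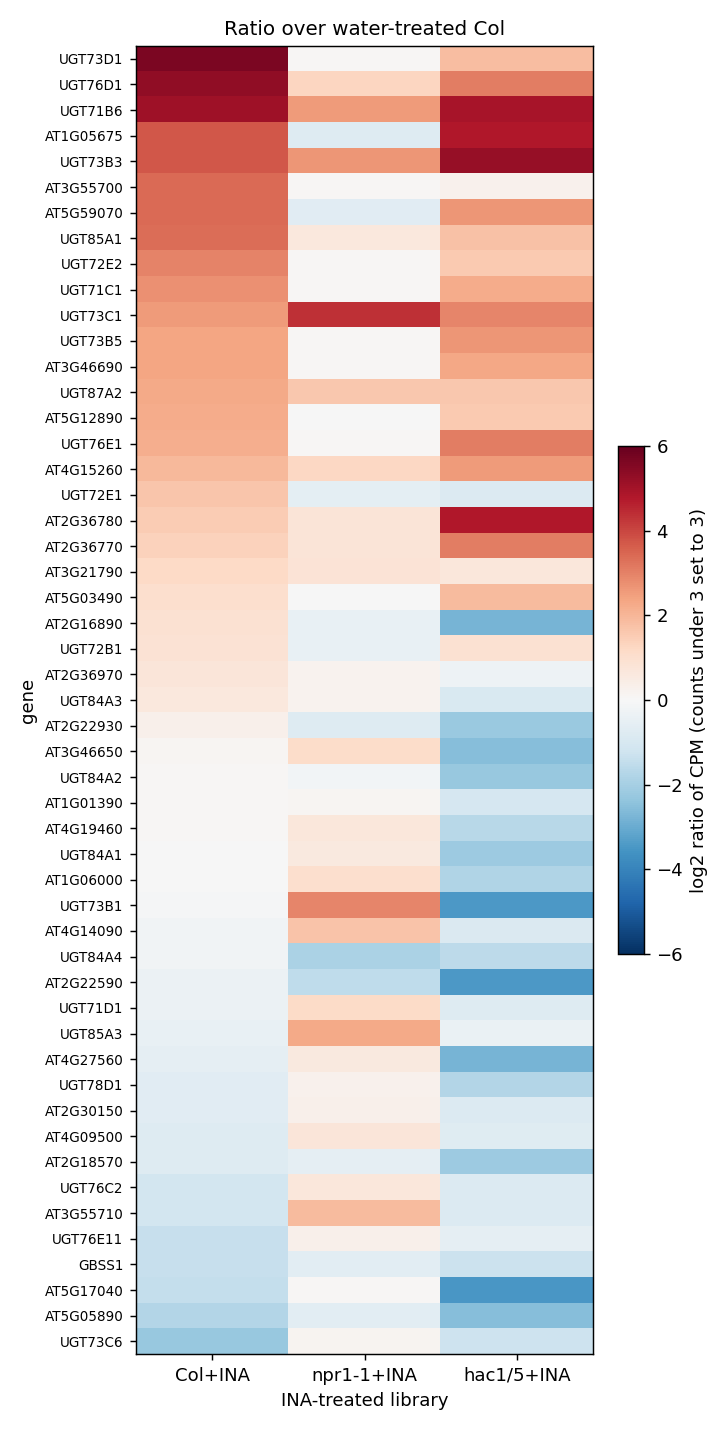
Color map of the log2 ratio of CPM over water-treated Col (counts under 3 set to 3) in the 3 INA-treated libraries, for the members called in at least 1 of the first 3 comparisons, ordered by Col+INA over Col. UGT73D1 is at the top with 5.65 in Col+INA, and UGT73B1 is red in npr1-1+INA and blue in hac1/5+INA.

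Pairs of comparisons without a common library were set side by side. Of the 19 members higher in Col+INA than Col, 12 (63.2%) were lower in npr1-1+INA than hac1/5+INA, which is also 63.2% of the 19 members of the second list. Over all loci the overlap was 63.6% of the first list and 60.7% of the second. Of the 19 members higher in hac1/5+INA than Col, 12 (63.2%) were among the 18 members lower in npr1-1+INA than Col+INA, and they make up 66.7% of that list, beside 54.9% and 66.8% over all loci. The first overlap included UGT76D1, UGT85A1, UGT71B6 and UGT73B3. The shares of members were thus near those of all loci.

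UGT76D1 (AT2G26480, chr2:11263963-11265684, plus strand, TAIR10) glucosylates dihydroxybenzoic acids, the hydroxylated catabolites of SA. It had 3 reads in water-treated Col and, after INA, 122 in Col, 7 in npr1-1 and 25 in hac1/5. Thus, Col+INA was high, hac1/5+INA intermediate and the other two libraries low. The level in Col+INA was 39.4-fold that in Col (13.2 to 194), it was 16.3-fold below Col+INA in npr1-1+INA (7.69 to 41.5), and 4.74-fold lower in hac1/5+INA (3.06 to 7.61). UGT71C3, which glucosylates methyl salicylate, had only 2 to 4 reads per library and was called in no comparison.

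The PSPG box was searched as a fixed pattern of 44 residues in the proteins translated from the coding sequences of all members. It was found in 72 of them, all of which carry the UGT domain, and their proteins had a median of 478.5 residues. Other members with the domain, among them UGT74D1, UGT89B1, UGT87A2 and the rhamnosyltransferase AT1G06000, did not match. A missing match does not show that the box is absent, and these members are not in the counts of the last codon below. The coding DNA of the box is shown for UGT76D1, UGT73D1 and UGT85A1, 3 of the members with a large rise under INA, and for the rhamnosyltransferase UGT78D1, whose last codon is of another kind. Sequences were read from the RefSeq genome (TAIR10.1) on the coding strand, 5′ to 3′, and capitals mark the 6 codons of the conserved core and the last codon of the box.
UGT76D1, chr2:11265195-11265326, plus strand: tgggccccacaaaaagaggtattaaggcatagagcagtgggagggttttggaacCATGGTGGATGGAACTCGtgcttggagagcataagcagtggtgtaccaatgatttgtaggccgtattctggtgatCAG
UGT73D1, chr3:19698057-19698188, minus strand: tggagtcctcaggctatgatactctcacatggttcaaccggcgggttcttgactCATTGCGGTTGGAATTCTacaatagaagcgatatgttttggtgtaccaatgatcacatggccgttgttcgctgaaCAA
UGT85A1, chr1:7904103-7904234, minus strand: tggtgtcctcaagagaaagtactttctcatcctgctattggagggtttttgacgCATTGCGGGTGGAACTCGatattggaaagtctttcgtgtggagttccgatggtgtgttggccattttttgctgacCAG
UGT78D1, chr1:10816006-10816137, plus strand: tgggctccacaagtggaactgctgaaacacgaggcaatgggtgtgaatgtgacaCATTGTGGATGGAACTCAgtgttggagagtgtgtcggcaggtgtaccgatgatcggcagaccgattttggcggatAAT
The last codon encodes glutamine in 69 of the 72 boxes, the residue usual in enzymes that use UDP-glucose, histidine in UGT78D3 and AT5G17040, and asparagine in UGT78D1. Between the 91 members with the domain, pairwise protein identity had a median of 29.3% and reached 91.3%.

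UGT73D1, UGT73B3, UGT73B5 and UGT73C1 are the 4 members named for the UGT73 family among the 19 that were higher in Col+INA. Of the others with this name, UGT73C6 was lower in Col+INA than Col, and UGT73B1, UGT73B4, UGT73C2 and UGT73C7 were not called. Over all loci, 14% were higher in Col+INA than Col. UGT73D1 (AT3G53150, chr3:19697736-19699259, minus strand) had 1 read in water-treated Col and, after INA, 156 in Col, 1 in npr1-1 and 11 in hac1/5. Col+INA was far above the other libraries, and the ratio to Col was 151 with a wide interval (26.7 to 6005) because it rests on 1 read. It was 13.8-fold below Col+INA in hac1/5+INA (7.49 to 28.2). No acceptor is given for UGT73D1 in the annotation used here.

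UGT73B3 and UGT73B5 are needed for full resistance to avirulent Pseudomonas syringae. UGT73B3 (AT4G34131) had 7 reads in water-treated Col and, after INA, 95 in Col, 42 in npr1-1 and 266 in hac1/5. Unlike UGT76D1 and UGT73D1, it was highest in hac1/5+INA, where it was 2.88-fold above Col+INA (2.27 to 3.68), while npr1-1+INA was 2.12-fold below Col+INA (1.46 to 3.13). UGT73B5 had 0, 16, 1 and 19 reads, a rise of at least 5.16-fold in Col+INA over Col. UGT73B4, whose coding sequence is 91.7% identical to that of UGT73B5, had 0 reads in 3 libraries and 3 in hac1/5+INA.

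UGT73B1, the other member in the tandem cluster of UGT73B3, showed another order of the libraries. It had 65 reads in water-treated Col and, after INA, 63 in Col, 477 in npr1-1 and 6 in hac1/5. The wild type was thus about level with and without INA, npr1-1+INA was 8.08-fold higher than Col+INA (6.20 to 10.7), and hac1/5+INA was 10.2-fold lower (4.43 to 28.9). Between both mutants the ratio was 82.4-fold (37.6 to 226). UGT73B2, a flavonol glucosyltransferase with a locus number between theirs that is described in other words in the tables and is no member, had 64, 397, 177 and 215 reads.

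**Figure D3:**
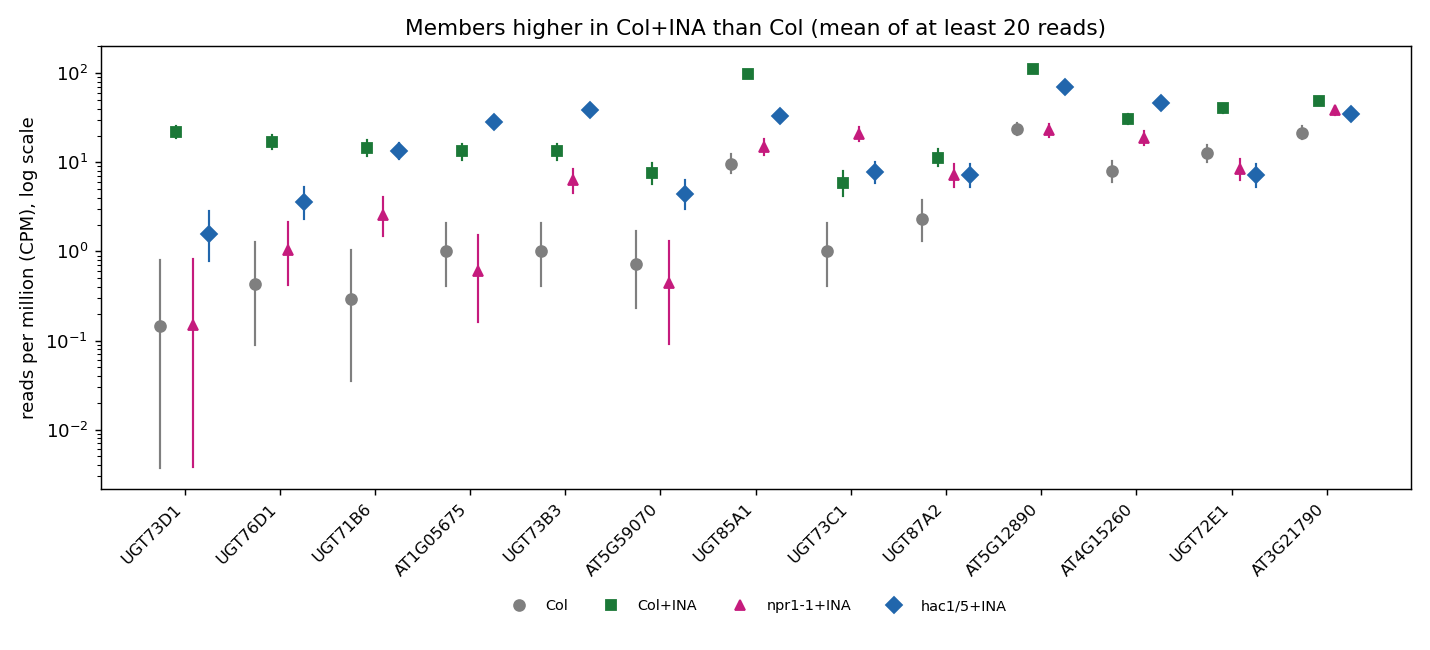
CPM on a log axis in the 4 libraries for the 13 members that were higher in Col+INA than Col and had a mean of at least 20 reads, with bars for the 95% counting interval of each value. For UGT73D1, UGT76D1, UGT71B6, AT5G59070, UGT85A1, UGT87A2, AT5G12890, UGT72E1 and AT3G21790 the Col+INA value is the highest of the 4, whereas AT1G05675, UGT73B3 and AT4G15260 are highest in hac1/5+INA and UGT73C1 in npr1-1+INA.

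AT1G05675 and AT5G59070 were also among the 6 largest rises of members with a mean of at least 20 reads. AT1G05675 had 7 reads in water-treated Col and, after INA, 95 in Col, 4 in npr1-1 and 197 in hac1/5. Col+INA and hac1/5+INA were high, the latter 2.13-fold above the former (1.66 to 2.76), and npr1-1+INA was 22.3-fold below Col+INA (8.41 to 83.4). With TMM factors the log2 ratio of hac1/5+INA over Col+INA was 0.98, below the threshold of 1. AT5G59070, a member without the UGT domain, had 5, 54, 3 and 31 reads, and its level in npr1-1+INA was 16.9-fold below Col+INA (5.47 to 84.4).

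The listed phenylpropanoid UGTs act on monolignols and hydroxycinnamic acids. Of 7 measured, 2 were higher in Col+INA than Col and 0 lower, 4 were lower and 0 higher in npr1-1+INA than Col+INA, and 5 were lower and 0 higher in hac1/5+INA. Over all loci, 14% were higher in Col+INA, 13.2% lower in npr1-1+INA and 5.85% lower in hac1/5+INA. The 7 members' median log2 ratios were 0.64, -1.31 and -1.57 in the 3 comparisons, beside -0.05, 0.09 and 0.04 over all loci tested. Over all loci with a mean of at least 10 reads, these medians were 0.17, -0.07 and 0.12.

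UGT84A2, which makes sinapoylglucose, had 1281 reads in water-treated Col and, after INA, 1399 in Col, 1099 in npr1-1 and 269 in hac1/5. Both Col libraries and npr1-1+INA lay close together, and hac1/5+INA was 5.05-fold below Col+INA (4.43 to 5.78). The hydroxycinnamate relatives of UGT84A2 were low in hac1/5+INA as well. UGT84A3 had 750, 1206, 852 and 394 reads and was 2.97-fold below Col+INA in hac1/5+INA (2.65 to 3.34), and UGT84A1 had 32, 33, 47 and 7 reads, 4.58-fold lower (1.99 to 12.3). UGT84A4 had 76, 67, 20 and 26 reads, 3.14-fold below Col+INA in npr1-1+INA (1.88 to 5.46) and 2.50-fold below it in hac1/5+INA (1.57 to 4.10).

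The UGT72 genes of this list differed from each other. UGT72E1 had 88 reads in water-treated Col and, after INA, 291 in Col, 56 in npr1-1 and 50 in hac1/5. This gene was thus high in Col+INA alone. It was 3.20-fold above Col in Col+INA (2.51 to 4.11) and 5.66-fold below Col+INA in hac1/5+INA (4.18 to 7.80). UGT72B1, which also detoxifies chlorinated phenols and anilines, had 1286, 2409, 910 and 2427 reads. It was about level between Col+INA and hac1/5+INA and 2.48-fold lower in npr1-1+INA (2.30 to 2.68), and its ratio of Col+INA to Col, with a log2 value of 0.86, stayed under the threshold. UGT72E2 had 0, 24, 0 and 9 reads, a rise of at least 7.75-fold in Col+INA over Col.

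**Figure D4:**
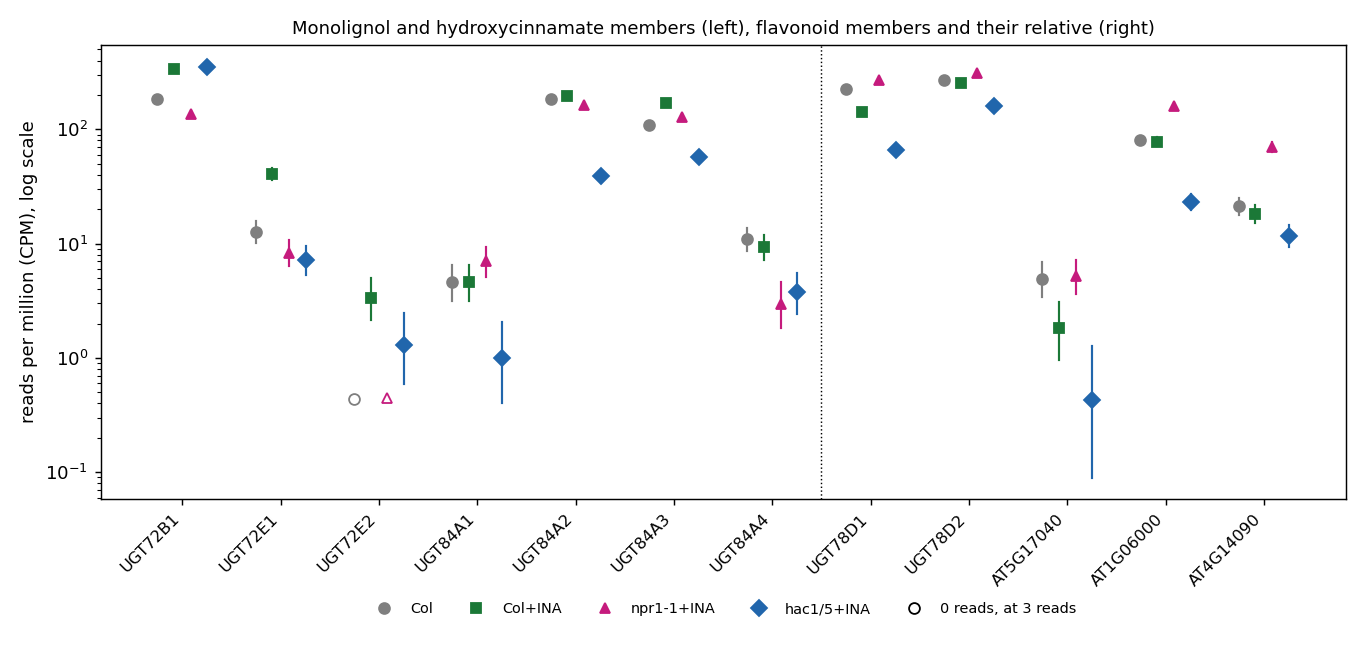
CPM on a log axis in the 4 libraries for the phenylpropanoid UGTs (left of the dotted line) and for the flavonoid UGTs with a mean of at least 10 reads and AT5G17040, a neighbor of UGT78D2 (right), with 95% counting intervals. Open symbols mark 0 reads and stand at the CPM of 3 reads. The hac1/5+INA value is the lowest of the 4 for UGT72E1, UGT84A1, UGT84A2, UGT84A3 and for the 5 genes on the right.

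Flavonols and anthocyanins receive their sugars from a small set of UGTs. Of the 6 members listed for flavonoids, 0 were higher and 1 was lower in Col+INA than Col, 3 were higher and 0 lower in npr1-1+INA than Col+INA, and 2 were lower and 0 higher in hac1/5+INA than Col+INA. Over all loci, 8.62% were lower in Col+INA, 10.8% higher in npr1-1+INA and 5.85% lower in hac1/5+INA. The 6 members' median log2 ratios were -0.16, 0.98 and -0.66, beside -0.05, 0.09 and 0.04 over all loci tested. Loci with a mean of at least 10 reads had medians of 0.17, -0.07 and 0.12.

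UGT78D1, a flavonol rhamnosyltransferase, had 1551 reads in water-treated Col and, after INA, 1011 in Col, 1802 in npr1-1 and 455 in hac1/5, and the last was 2.16-fold below Col+INA (1.93 to 2.42). AT1G06000, a flavonol 7-O-rhamnosyltransferase, had 553, 559, 1074 and 161 reads. Here both Col libraries were level, npr1-1+INA was 2.05-fold above Col+INA (1.85 to 2.27) and hac1/5+INA 3.37-fold below it (2.83 to 4.05). AT4G14090, an anthocyanidin 5-O-glucosyltransferase, had 147, 130, 470 and 81 reads and was 3.86-fold above Col+INA in npr1-1+INA (3.17 to 4.72). UGT78D2 had 1889, 1833, 2070 and 1110 reads, with a log2 ratio of -0.68 for hac1/5+INA over Col+INA that did not reach the threshold. For UGT73C6, which acts on flavonols and brassinosteroids, 14, 0, 15 and 6 reads were counted, at least 4.82-fold below Col in Col+INA, and UGT78D3, a flavonol arabinosyltransferase, had 0 to 2 reads.

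Among the hormone UGTs, UGT71B6, a glucosyltransferase of abscisic acid, had 2 reads in water-treated Col and, after INA, 104 in Col, 17 in npr1-1 and 94 in hac1/5. It was high in Col+INA and hac1/5+INA, with a ratio of Col+INA to Col of 50.4 (13.6 to 421), and 5.73-fold below Col+INA in npr1-1+INA (3.41 to 10.2). UGT71C5, another abscisic acid glucosyltransferase, had 131, 94, 113 and 178 reads and was called in none of the 3 main comparisons, and UGT71B8 had 0 or 1 read. The auxin glucosyltransferase UGT74D1 had 1110, 1040, 1225 and 607 reads, with a log2 ratio of -0.74 for hac1/5+INA over Col+INA. The steryl glucosyltransferases UGT80A2, with 17 to 20 reads, and UGT80B1, with 0 to 6 reads, were not called in any comparison.

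Of the 4 cytokinin UGTs, 2 were higher and 1 was lower in Col+INA than Col, beside 14% and 8.62% of all loci. UGT85A1, which glucosylates trans-zeatin at its side chain, had 67 reads in water-treated Col and, after INA, 705 in Col, 100 in npr1-1 and 228 in hac1/5. Its order of libraries was that of UGT76D1, with a 10.2-fold rise in Col+INA (7.92 to 13.3), a 6.61-fold lower level in npr1-1+INA than in Col+INA (5.35 to 8.23) and a 3-fold lower level in hac1/5+INA (2.58 to 3.50). UGT73C1, active on the side chain of zeatins and on nitrotoluenes, had 7, 42, 140 and 54 reads and was 3.56-fold above Col+INA in npr1-1+INA (2.50 to 5.15). The ring-nitrogen glucosyltransferase UGT76C2 had 76, 37, 118 and 43 reads, 2.12-fold below Col in Col+INA (1.41 to 3.23), whereas its neighbor UGT76C1 had 139, 87, 124 and 101 reads and was called in no comparison, because none of its ratios reached 2-fold.

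Members outside these groups completed the most extreme values. AT3G46650 had 101 reads in water-treated Col and, after INA, 114 in Col, 213 in npr1-1 and 17 in hac1/5, and hac1/5+INA was 6.52-fold below Col+INA (3.90 to 11.6). AT2G16890 had 21, 41, 15 and 3 reads, with a ratio of Col+INA to hac1/5+INA of 13.3 (4.24 to 67.0) that rests on 3 reads. UGT76E11 had 453, 181, 549 and 312 reads, 2.58-fold below Col in Col+INA (2.17 to 3.09). GBSS1, which makes amylose and is not a UGT by domain, had 18782, 7441, 11637 and 7744 reads and was 2.61-fold below Col in Col+INA (2.54 to 2.68). UGT87A2, which regulates flowering time, had 16, 81, 48 and 50 reads, 4.90-fold above Col in Col+INA (2.84 to 8.98). UGT71B1 had 1028, 1411, 1305 and 874 reads and was called in no comparison.

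By position, 57 members lay in 18 tandem clusters, in which neighboring members are no more than 20 kb apart, and the largest cluster held 7 genes. Genes that are no members can lie between them. In the cluster of 5 UGT85A genes on chromosome 1, UGT85A1 had 705 reads in Col+INA and the other 4 genes had 2 to 17. UGT85A3 of this cluster had 4, 2, 19 and 0 reads and was higher in npr1-1+INA than Col+INA.

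AT3G55700 and AT3G55710 are next to each other on chromosome 3. AT3G55700 had 5 reads in water-treated Col and, after INA, 55 in Col, 5 in npr1-1 and 6 in hac1/5, and AT3G55710 had 42, 20, 152 and 24. The first was high in Col+INA alone, 10.7-fold above Col (4.30 to 34.1), and the second was high in npr1-1+INA alone, 8.11-fold above Col+INA (5.07 to 13.7). In the UGT73C cluster on chromosome 2, AT2G36780 had 0, 9, 5 and 83 reads and was 9.49-fold above Col+INA in hac1/5+INA (4.77 to 21.5), while AT2G36770 had 0, 8, 5 and 25. In the UGT71B cluster on chromosome 3, AT3G21790 had 149, 352, 256 and 241 reads, 2.29-fold above Col in Col+INA (1.88 to 2.79), and HYR1, which glucosylates hypostatin, had 111, 105, 160 and 58. UGT73C7, the neighbor of UGT73D1, had 1 to 6 reads. Pairs of near-identical genes could share reads, since the sources used here do not say how a read matching several gene models was counted, and 10 pairs of members were at least 85% identical in coding sequence, among them AT2G36770 and AT2G36780 (91.3%), AT3G55700 and AT3G55710 (86.8%) and UGT76E11 and UGT76E12 (89.1%).

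**Figure D5:**
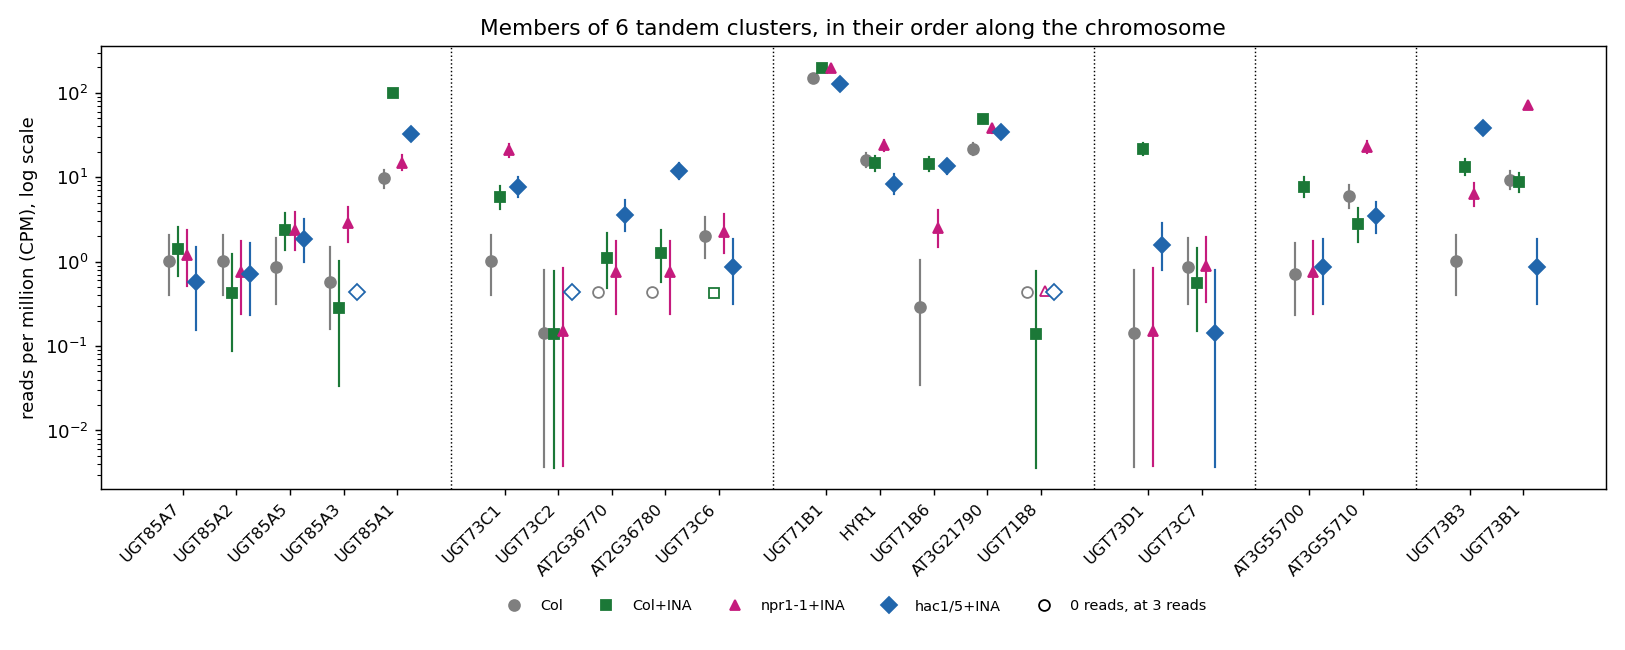
CPM on a log axis in the 4 libraries for the members of 6 tandem clusters, in their order along the chromosome and with dotted lines between clusters, with 95% counting intervals. Open symbols mark 0 reads and stand at the CPM of 3 reads. UGT73B3 and UGT73B1 at the right end show opposite orders of npr1-1+INA (6.27 and 71.2 CPM) and hac1/5+INA (38.3 and 0.864 CPM).

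The 250 bases before the annotated start of each gene were searched on both strands for TGACG, the core of the sites that TGA factors bind, for TTGACC or TTGACT, forms of the W box bound by WRKY factors, and for CACGTG, the G box. TGACG was found in 22 of 107 members (20.6%), beside 18.6% of 27443 promoters of all protein-coding genes, the W box in 30 (28.0%), beside 28.4%, and CACGTG in 10 (9.35%), beside 6.49%. Of the 19 members higher in Col+INA than Col, 6 (31.6%) had TGACG, 11 (57.9%) the W box and 1 CACGTG. The shares among all loci higher in Col+INA were not computed. Whether those of the members are particular to UGT genes was thus not tested. Of the 21 members lower in hac1/5+INA than Col+INA, 6 (28.6%) had TGACG, 7 (33.3%) the W box and 0 CACGTG. No TGACG match overlapped a W box match in a member. The promoters of 4 members with a large rise under INA are shown because 2 of them hold TGACG and 2 the W box, with capitals for each match of either motif on either strand.
UGT73D1, chr3:19699393-19699642, minus strand: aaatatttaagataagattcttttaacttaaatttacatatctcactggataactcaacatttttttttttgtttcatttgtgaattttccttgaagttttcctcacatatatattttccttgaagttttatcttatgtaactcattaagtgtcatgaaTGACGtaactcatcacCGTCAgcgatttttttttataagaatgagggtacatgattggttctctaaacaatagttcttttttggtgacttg
UGT73B3, chr4:16344819-16345068, minus strand: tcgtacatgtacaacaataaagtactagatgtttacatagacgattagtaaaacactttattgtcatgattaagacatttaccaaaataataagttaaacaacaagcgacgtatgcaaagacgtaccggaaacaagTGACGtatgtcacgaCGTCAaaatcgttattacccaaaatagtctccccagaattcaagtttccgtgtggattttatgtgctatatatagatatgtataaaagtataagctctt
UGT76D1, chr2:11263639-11263888, plus strand: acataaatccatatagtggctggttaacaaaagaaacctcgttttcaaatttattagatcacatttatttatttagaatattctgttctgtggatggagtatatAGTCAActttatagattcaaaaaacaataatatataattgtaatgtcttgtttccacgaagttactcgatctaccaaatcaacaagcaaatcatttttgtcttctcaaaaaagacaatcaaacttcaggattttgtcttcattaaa
UGT85A1, chr1:7906970-7907219, minus strand: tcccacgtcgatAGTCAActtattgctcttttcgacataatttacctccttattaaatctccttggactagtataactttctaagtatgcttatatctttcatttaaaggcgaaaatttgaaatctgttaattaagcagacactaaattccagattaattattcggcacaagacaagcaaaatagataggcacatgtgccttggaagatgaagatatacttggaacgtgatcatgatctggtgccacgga
UGT73D1 and UGT73B3 each hold TGACG once on each strand. UGT76D1 and UGT85A1 hold no TGACG in this window, which says only that these letters are not in these 250 bases.

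The sugar donors of the UGTs are made by another set of genes, and 17 of them were listed: UDP-glucose and UDP-sugar pyrophosphorylases, sucrose synthases, UDP-rhamnose synthases and UDP-glucose 4-epimerases. Of the 17, 1 was higher and 2 were lower in Col+INA than Col, 3 were higher and 1 lower in npr1-1+INA than Col+INA, and 0 were higher and 2 lower in hac1/5+INA. Over all loci, 14% were higher and 8.62% lower in Col+INA, 10.8% higher and 13.2% lower in npr1-1+INA, and 3.87% higher and 5.85% lower in hac1/5+INA. The median log2 ratios of the 17 genes were -0.32, 0.09 and 0.04, beside -0.05, 0.09 and 0.04 over all loci tested. At a mean of at least 10 reads, all loci had 0.17, -0.07 and 0.12. UGP2, a UDP-glucose pyrophosphorylase, had 251 reads in water-treated Col and, after INA, 109 in Col, 226 in npr1-1 and 51 in hac1/5, and was 2.38-fold below Col in Col+INA (1.89 to 3.01). UGE5, an epimerase between UDP-glucose and UDP-galactose, had 4, 34, 4 and 33 reads and was the only listed supply gene higher in Col+INA, by 8.23-fold (2.94 to 31.9).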

How the data were processed

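RNA-seq was deposited by the authors as 3 tables, each joining 2 libraries. Reads were aligned by the authors using SOAPaligner/soap2 with at most 2 mismatches, and were deposited as whole-number counts per gene model that were not normalized. The RPKM values, as deposited by the authors, are these counts divided by gene model length and by the library total of counts, and recomputing them gave a largest log2 difference of 5.8e-08. The submitters' processing notes name TAIR10 as the genome build. The authors' ratio, p-value and FDR columns were not used, and the number of value columns without a sample was 0.

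The tables were joined into 25931 gene models of 22183 loci, and the gene model with the most reads stood for its locus. For each pair of libraries, a two-sided exact binomial test was run against the shares of the library totals, with Benjamini-Hochberg adjustment over all loci with a read in either library. Counts under 3 were set to 3 in log2 ratios, and folds against 0 reads are bounds against 3 reads. Intervals have a level of 95%. PCR reads are not independent molecules, so that intervals and bounds cover counting error only. The test was checked on simulated counts.

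The members and gene lists were chosen with earlier results of these data known. Named members are those with a listed role and, for each of the first 3 comparisons, the 6 largest rises and 6 largest falls among called members with a mean of at least 20 reads, the 5 highest by mean RPKM and the extreme members of tandem clusters. AT5G12890, AT5G05890, AT2G36770 and other members outside this rule were named after their values were seen. Roles were given only where the tables, the annotation or common knowledge of a named gene provide them. AT5G03490, AT3G21790 and AT5G17040 were therefore left out of the role groups, since neither the tables nor the annotation name them. Of these, AT5G03490 had 128 reads in water-treated Col and, after INA, 262 in Col, 120 in npr1-1 and 486 in hac1/5.

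Coordinates printed for genes come from the tables. All 107 matched in chromosome, strand and at least 90% of their length with the RefSeq annotation of TAIR10.1, from which sequences were read. Promoters and tandem clusters were placed by the gene starts and ends of RefSeq. A promoter shown therefore need not adjoin the gene coordinates printed. The alternatives were an FDR of 0.2, a log2 threshold of 1.5, a mean of at least 10 reads, TMM factors, DESeq2 size factors, reads summed over gene models, log2(RPKM + 1) and edgeR's exact test with an assumed variation of 0.2 or 0.4. Python 3.11.15, SciPy 1.17.1, pandas 2.3.3, numpy 2.4.6, matplotlib 3.10.9, Biopython 1.88, together with R 4.3.3, DESeq2 1.42.0 and edgeR 4.0.16, served for the computations.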

Additional observations from a re-analysis of the deposited data

How the results depend on the processing

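Without replicates, the calls rest on counting error, and the counts of members moved most where variation between plants was assumed. With edgeR's exact test and an assumed variation of 0.4, the counts of members higher and lower were 3 and 0 for Col+INA against Col, 0 and 3 for npr1-1+INA against Col+INA, 0 and 0 for hac1/5+INA against Col+INA, 0 and 0 for npr1-1+INA against Col, 4 and 1 for hac1/5+INA against Col, and 2 and 1 for npr1-1+INA against hac1/5+INA. With an assumed variation of 0.2, the counts that moved by more than 1.5 times were 2 members lower in Col+INA than in Col, 8 higher in npr1-1+INA than in Col+INA, 1 higher in hac1/5+INA than in Col+INA, 2 higher and 0 lower in npr1-1+INA than in Col, 11 lower in hac1/5+INA than in Col, and 15 higher and 11 lower in npr1-1+INA than in hac1/5+INA. A log2 threshold of 1.5 left 2 members lower in Col+INA than in Col, and log2(RPKM + 1) left 1 lower in npr1-1+INA than in Col. An FDR of 0.2 gave 7 members higher in hac1/5+INA than in Col+INA. TMM factors gave 2 members higher in hac1/5+INA than in Col+INA and 27 lower in hac1/5+INA than in Col, and DESeq2 size factors gave 2 and 29. These factors shift every log2 ratio by the same amount, by -0.14 and -0.16 for Col+INA against Col and by -0.25 and -0.28 for hac1/5+INA against Col. No median log2 ratio moved by more than the typical counting error of a single member's ratio under its 5 alternatives. That yardstick is wide for a median over many members, so it does not show that the medians were stable. With the filter of at least 10 mean reads, which kept 67 members, the median of hac1/5+INA against Col+INA was -0.51 (0.12 over all loci), that of hac1/5+INA against Col -0.41 (0.31) and that of npr1-1+INA against hac1/5+INA 0.35 (-0.18). Of 480 values of the 40 named members under 4 alternatives, 470 kept their side of the threshold and none of the others changed sign. No paired analysis was possible because each condition has 1 library. The 40 members with a mean under 10 reads are limited by depth.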

Other observations

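Genes that act on the same kinds of acceptor but are worded differently in the tables were not members. UGT73C5, which glucosylates brassinosteroids and the fungal toxin deoxynivalenol, follows UGT73C6 by locus number and had 251 reads in water-treated Col and, after INA, 1021 in Col, 1281 in npr1-1 and 1125 in hac1/5, so that all 3 INA libraries were high. UGT74E2, a glucosyltransferase of indole-3-butyric acid, had 3, 93, 172 and 126 reads in the same order, again high in each INA library. UGT75D1, which also acts on indole-3-butyric acid, had 2309, 2554, 3439 and 3143 reads, and UGT75B1, which acts on p-aminobenzoate, had 94, 132, 376 and 179. The anthocyanin xylosyltransferase UGT79B1 had 4, 16, 13 and 0 reads.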
